A study of Mus musculus with 12 samples.

Results

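The type I interferon response genes described here are 42 genes whose transcripts are induced when cells sense interferon-alpha or interferon-beta. They were taken from a list of symbols, and a member counts as measured where at least 1 probe set of the array is annotated with its symbol and no other. By this rule 39 of the 42 genes were measured, with 62 probe sets, out of 15858 genes measured in all. Of the 39 members, 23 were read by 1 probe set and 16 by several, which were averaged. Isg15, Oas1g and Ifi44 had no probe set of their own and are not analysed here as single genes.

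RNA came from GFP-positive cells sorted from mouse bone marrow 4 weeks after transplantation, on 12 Affymetrix arrays with 3 in each of 4 groups. In every group the cells were C57BL/6 bone marrow cells immortalised with HoxA9, a homeobox factor that keeps myeloid progenitors dividing. All were transduced with a retroviral vector that carries a fluorescent marker and were transplanted into irradiated syngeneic recipients. The IDH1mut group held cells with pSF91-IDH1mut-IRES-GFP, in which mutant isocitrate dehydrogenase 1 is expressed from the retrovirus. The R-2HG group held empty vector cells in recipients given R-2-hydroxyglutarate, the metabolite made by mutant IDH1, at 1 mg per day for 4 weeks. The IDH1wt group held cells with pSF91-IDH1wt-IRES-EGFP and the last group held cells with the empty vector. The labels state neither ages, nor the IDH1 substitution, nor how many recipients stand behind an array. Nothing says that the replicates of a group came from separate animals, so a p-value here speaks only to array-to-array spread, part or all of which may be technical. One label of the R-2HG arrays mentions the IDH1mut vector, but the design text and their titles give empty vector cells treated with R-2HG, and that was followed.

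The values are log2 values centred for each probe set. They show differences between arrays and carry no absolute level, so neither the identity of the sorted cells nor the absence of another cell type can be read from them. The SD of the difference between 2 arrays of a group, over all probe sets, ran from 0.178 to 0.362. R-2HG replicate 3 stood apart from the other R-2HG arrays, with an SD of 0.350 against replicate 1 and 0.362 against replicate 2, whereas replicates 1 and 2 differed with an SD of 0.178. Values for R-2HG are first given with all 3 arrays. Those of the called members, and the counts of members and pathway gene lists against empty vector, are given further on without that array and with that array alone. Counts of cell type and handling markers are with all 3 R-2HG arrays unless stated otherwise. The Idh1 gene ran from -0.10 to 0.21 in IDH1mut arrays, from -0.03 to 0.34 in R-2HG arrays, from -0.19 to 0.01 in IDH1wt arrays and from 0.00 to 0.17 in empty vector arrays. Whether its probe sets detect the retroviral IDH1 is unknown here, so this is no check of the labels.

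Type I interferons bind a receptor made of Ifnar1 and Ifnar2, and the kinases Jak1 and Tyk2 on that receptor pass the signal on by phosphorylation. A transcription factor complex that contains Stat2 and Irf9 then binds the interferon-stimulated response element (ISRE) in the promoters of target genes. The induced proteins block viral RNA or its translation, sense nucleic acids, or feed back on the pathway itself. Blood-forming and myeloid cells keep part of this programme active without infection.

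Promoters of 4 members that rose in IDH1mut cells and of 2 that fell are shown, to make this element visible in genes that changed in either direction. They were picked after their values were seen, from the members that hold its core. RefSeq promoters (assembly GRCm38.p6) were found for 29 of the 39 measured members, as 36 windows of 250 bases before an annotated start. The letters searched were GAAANNGAA, a core of the ISRE, on both strands. The core was present in 12 of 29 members (41.4%), against 8.18% of all genes with a promoter in the same table. Per window the shares were 33.3% and 7.13%. With the gene's own strand alone they fell to 11.1% and 3.66% of windows. The gamma-activated site, searched as TTCNNNGAA on both strands, was present in 5 of 29 members (17.2%), against 8.13% of all genes, and in Bst2 it overlaps an ISRE core. A match describes letters and not a bound site. The 6 windows below are printed 5′ to 3′ on the gene's strand, with matches to the ISRE core on either strand in capitals. Rsad2, Ifit3, Ifit1 and Oas3 were higher in IDH1mut cells, and Bst2 and Gbp3 were lower.
Ifit3 (chr19:34583279-34583528, plus strand): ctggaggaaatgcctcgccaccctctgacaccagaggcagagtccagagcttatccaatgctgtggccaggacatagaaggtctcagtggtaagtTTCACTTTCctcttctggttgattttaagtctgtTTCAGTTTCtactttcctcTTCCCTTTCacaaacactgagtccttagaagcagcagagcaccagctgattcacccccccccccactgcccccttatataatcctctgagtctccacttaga
Ifit1 (chr19:34640639-34640888, plus strand): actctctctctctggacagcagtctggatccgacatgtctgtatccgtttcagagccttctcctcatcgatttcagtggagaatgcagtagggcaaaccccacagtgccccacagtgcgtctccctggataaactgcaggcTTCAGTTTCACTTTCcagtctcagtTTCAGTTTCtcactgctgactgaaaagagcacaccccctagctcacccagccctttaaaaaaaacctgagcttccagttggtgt
Rsad2 (chr12:26456453-26456702, minus strand): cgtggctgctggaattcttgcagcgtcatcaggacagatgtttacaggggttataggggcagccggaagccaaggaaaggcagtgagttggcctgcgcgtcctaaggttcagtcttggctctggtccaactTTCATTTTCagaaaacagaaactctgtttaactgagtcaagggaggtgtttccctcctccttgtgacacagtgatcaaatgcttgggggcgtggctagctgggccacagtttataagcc
Oas3 (chr5:120777660-120777909, minus strand): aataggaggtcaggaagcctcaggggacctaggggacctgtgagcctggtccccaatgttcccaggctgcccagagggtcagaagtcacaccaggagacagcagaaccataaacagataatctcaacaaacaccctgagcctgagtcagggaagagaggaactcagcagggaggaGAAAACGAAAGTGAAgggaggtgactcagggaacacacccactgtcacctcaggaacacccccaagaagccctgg
Bst2 (chr8:71537473-71537722, minus strand): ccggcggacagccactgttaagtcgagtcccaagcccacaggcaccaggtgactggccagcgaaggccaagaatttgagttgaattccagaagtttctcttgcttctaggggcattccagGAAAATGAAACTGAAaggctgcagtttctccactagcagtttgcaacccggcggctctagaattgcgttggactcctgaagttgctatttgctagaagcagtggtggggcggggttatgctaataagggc
Gbp3 (chr3:142559794-142560043, plus strand): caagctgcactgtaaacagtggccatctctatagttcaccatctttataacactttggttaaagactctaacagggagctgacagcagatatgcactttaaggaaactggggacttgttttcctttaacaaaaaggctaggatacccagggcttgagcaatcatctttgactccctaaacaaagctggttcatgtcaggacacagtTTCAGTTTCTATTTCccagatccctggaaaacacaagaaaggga

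Counting the base just before the start as -1, the match nearest to the start began at -102 in Ifit3, -84 in Ifit1, -119 in Rsad2, -69 in Oas3, -124 in Bst2 and -38 in Gbp3. Gbp3 has another annotated start, whose window holds no match and is not shown. The matches of Ifit3, Ifit1, Rsad2 and Gbp3 read on the opposite strand, and those of Oas3 and Bst2 on the gene's own strand. Among members called in IDH1mut cells, the core was in the windows of 6 of the 15 higher members with a promoter and of 3 of the 3 lower ones. Among the 11 members with a promoter that were not called it was found in 3, namely Oas1a, Gbp2 and Stat2. The core was thus present in members of either direction.

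In IDH1mut cells most interferon response genes were higher than in empty vector cells. Of 39 members, 20 were called higher and 3 lower by limma at an adjusted p under 0.05, where 10.5% of all genes tested were called higher and 12.1% lower. The median log2 fold change of the members was 0.33, against -0.05 over all genes. The 3 IDH1mut arrays lay above all 3 empty vector arrays in 24 members (17.5% of all genes did so) and below them in 5 (23.7% of all genes). In R-2HG cells 17 members were called higher and 4 lower, where 16.5% and 24.3% of all genes were called, with a median of 0.26 over the members and 0.00 over all genes. The R-2HG arrays lay wholly above the empty vector arrays in 19 members (23.7% of all genes) and wholly below them in 4 (29.8% of all genes). In IDH1wt cells the median over members was 0.12, against -0.04 over all genes, and Ifit2 was the one member called, higher, where 0.788% of all genes were called higher and 0.561% lower. The IDH1wt arrays lay wholly above the empty vector arrays in 13 members (10.2% of all genes) and wholly below them in 4 (13.6% of all genes). These 3 comparisons share the empty vector arrays. In sorted cells measured in bulk, fewer cells of a kind and less RNA per cell cannot be told apart.

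The median over the 39 members on each array was 0.21, 0.13 and 0.14 in IDH1mut, -0.01, 0.00 and 0.22 in R-2HG, -0.09, 0.00 and -0.06 in IDH1wt, and -0.18, -0.12 and -0.13 in empty vector. All IDH1mut arrays lay above all IDH1wt and empty vector arrays. R-2HG replicate 3 lay at the level of the IDH1mut arrays, while R-2HG replicates 1 and 2 lay within the range of IDH1wt.

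**Figure D1:**
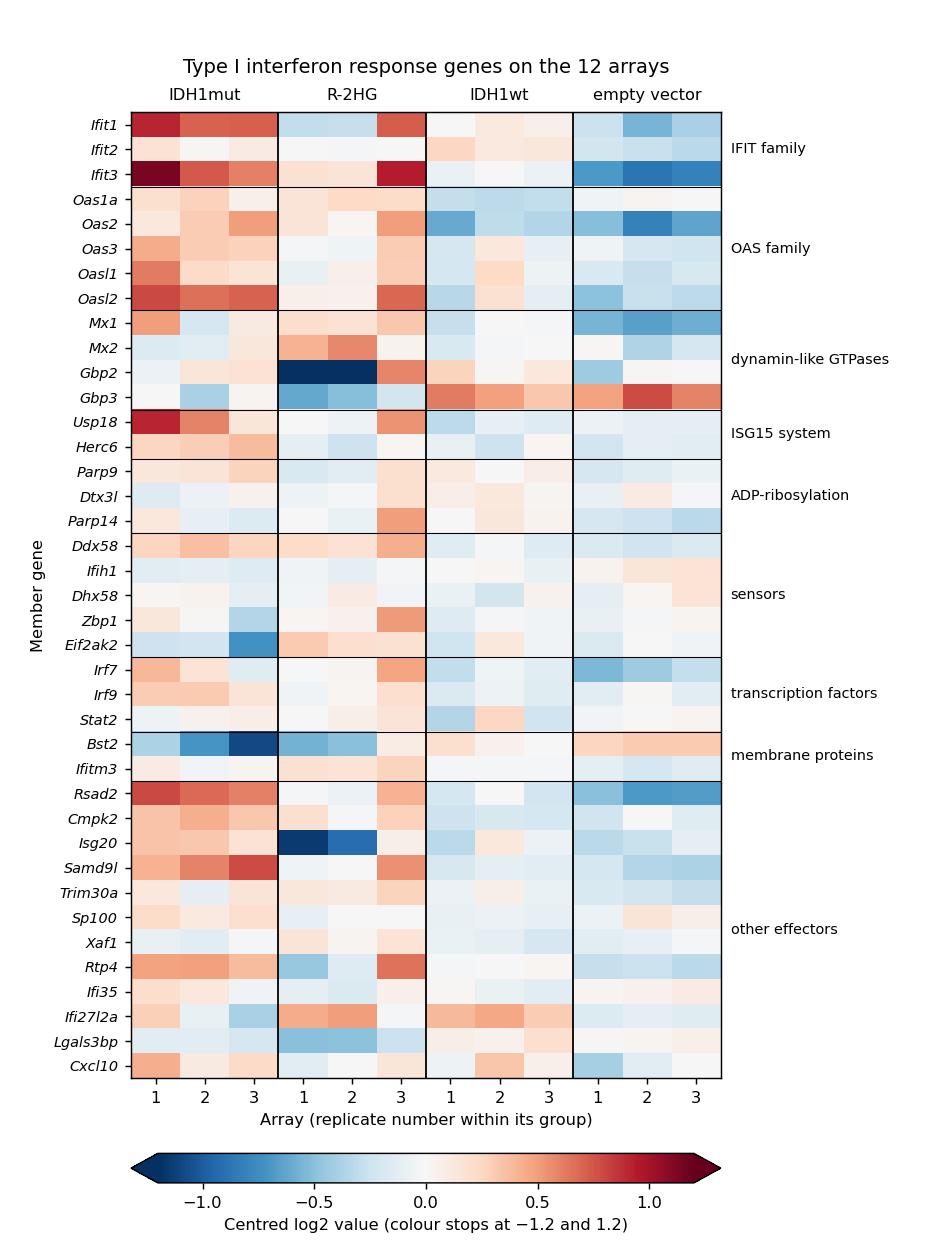
Heat map of the 39 measured members (rows, by role) on the 12 arrays (columns, by group and replicate number). Colour gives the centred log2 value, red above and blue below 0. Ifit3, Rsad2 and Oasl2 are red on all IDH1mut arrays and on R-2HG replicate 3, and blue on all empty vector arrays, while Bst2 and Gbp3 are red on the empty vector arrays.

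The IFIT proteins bind viral RNA ends and hold back its translation, and all 3 measured members were called higher in IDH1mut cells. Ifit3, which partners Ifit1 on RNA, had centred log2 values of 1.14, 0.73 and 0.60 in IDH1mut, 0.18, 0.16 and 0.94 in R-2HG, -0.08, 0.00 and -0.07 in IDH1wt, and -0.69, -0.87 and -0.81 in empty vector. All IDH1mut arrays and R-2HG replicate 3 lay above every other array, and no array of another group fell among the empty vector arrays. Its log2 fold change against empty vector was 1.62 ± 0.19 in IDH1mut (SE, n = 3 per group, limma adjusted p = 0.000129), a 3.07-fold increase and the largest of any member. In R-2HG it was 1.22 ± 0.19 (limma adjusted p = 0.000484). In IDH1wt it was 0.74 ± 0.19, which missed the threshold (limma adjusted p = 0.0784). Transcripts of the near-identical copy Ifit3b may bind the Ifit3 probe set.

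Ifit1, which recognises the 5′ end of viral RNA, had values of 0.92, 0.71 and 0.72 in IDH1mut, -0.29, -0.27 and 0.73 in R-2HG, 0.00, 0.12 and 0.06 in IDH1wt, and -0.26, -0.55 and -0.39 in empty vector. R-2HG replicates 1 and 2 lay at the level of empty vector and replicate 3 at that of IDH1mut. Ifit1 rose 2.27-fold in IDH1mut (log2 1.18 ± 0.21, SE, limma adjusted p = 0.00208). Its R-2HG difference of 0.45 ± 0.21 was not called (limma adjusted p = 0.107) and was 0.12 without replicate 3 (limma adjusted p = 0.357). With replicate 3 alone the difference was 1.13. Ifit2, which acts with Ifit1 and Ifit3 and is linked to cell death, behaved differently. Its values were 0.18, 0.01 and 0.10 in IDH1mut, 0.01, -0.02 and 0.00 in R-2HG, 0.25, 0.11 and 0.13 in IDH1wt, and -0.22, -0.26 and -0.32 in empty vector. It was as high in IDH1wt as in IDH1mut, and empty vector arrays were the lowest. Its log2 fold changes against empty vector were 0.36 in IDH1mut, 0.26 in R-2HG and 0.43 in IDH1wt, all called (limma adjusted p = 0.0026, 0.00933 and 0.00856).

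The OAS family makes short oligoadenylates that switch on the RNA-degrading enzyme RNase L, and its OASL relatives lack or have reduced synthase activity. Of 5 measured members, 4 were called higher in IDH1mut cells (Oas2, Oas3, Oasl1 and Oasl2) and 3 in R-2HG cells (Oas1a, Oas2 and Oasl2). Oas2 had values of 0.13, 0.31 and 0.50 in IDH1mut, 0.15, 0.02 and 0.50 in R-2HG, -0.60, -0.30 and -0.35 in IDH1wt, and -0.51, -0.82 and -0.63 in empty vector. The arrays thus fell into a higher pair of groups and a lower pair of groups that did not overlap. Its log2 fold change against empty vector was 0.97 ± 0.14 in IDH1mut (SE, limma adjusted p = 0.000511) and 0.88 ± 0.14 in R-2HG (limma adjusted p = 0.000567).

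Oasl2 had values of 0.79, 0.66 and 0.71 in IDH1mut, 0.06, 0.05 and 0.69 in R-2HG, -0.33, 0.19 and -0.11 in IDH1wt, and -0.49, -0.27 and -0.32 in empty vector. It rose 2.11-fold in IDH1mut (log2 1.08 ± 0.17, SE, limma adjusted p = 0.000758) and 1.55-fold in R-2HG (log2 0.63 ± 0.17, limma adjusted p = 0.0104). Against empty vector the R-2HG value was 0.42 without replicate 3 and 1.05 with replicate 3 alone. Oas1a, a catalytic synthase, departed from this order. It had 0.19, 0.28 and 0.06 in IDH1mut, 0.16, 0.24 and 0.22 in R-2HG, -0.29, -0.31 and -0.29 in IDH1wt, and -0.04, 0.03 and 0.00 in empty vector. IDH1wt arrays were the lowest, and the log2 difference of IDH1mut from IDH1wt was 0.47 ± 0.07 (SE, limma adjusted p = 0.00106). Oas1a and Oas1g are close copies, so the probe set may read both.

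The dynamin-like GTPases assemble on viral particles or pathogen-containing membranes, and their 4 members did not move together. Mx1, whose product is truncated and inactive in C57BL/6 mice, had values of 0.51, -0.21 and 0.11 in IDH1mut, 0.21, 0.18 and 0.33 in R-2HG, -0.28, 0.00 and -0.03 in IDH1wt, and -0.56, -0.65 and -0.58 in empty vector. The empty vector arrays lay below every other array. Mx1 rose in IDH1mut by 0.73 ± 0.14 on the log2 scale (SE, limma adjusted p = 0.0036) and in R-2HG by 0.83 ± 0.14 (limma adjusted p = 0.000971). Mx2 had -0.16, -0.14 and 0.13 in IDH1mut, 0.42, 0.57 and 0.04 in R-2HG, -0.18, -0.02 and 0.00 in IDH1wt, and 0.01, -0.36 and -0.20 in empty vector. It was high in R-2HG replicates 1 and 2 alone, and its R-2HG change of 0.53 ± 0.14 was called (limma adjusted p = 0.0102). The change was 0.68 without replicate 3 (limma adjusted p = 0.00118) and 0.23 with that array alone (limma adjusted p = 0.396).

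Gbp3, a guanylate-binding protein that responds to both interferon types, fell. It had 0.00, -0.39 and 0.03 in IDH1mut, -0.61, -0.51 and -0.22 in R-2HG, 0.62, 0.49 and 0.33 in IDH1wt, and 0.49, 0.78 and 0.60 in empty vector. Both lower groups lay apart from both higher ones. Its log2 fold change against empty vector was -0.74 ± 0.14 in IDH1mut (SE, limma adjusted p = 0.00238) and -1.07 ± 0.14 in R-2HG (limma adjusted p = 0.000185). Gbp2, its neighbour on chromosome 3, had -0.07, 0.14 and 0.18 in IDH1mut, -1.40, -1.29 and 0.58 in R-2HG, 0.27, 0.01 and 0.13 in IDH1wt, and -0.43, 0.02 and 0.00 in empty vector. R-2HG replicates 1 and 2 were the lowest of all arrays and replicate 3 the highest, and with all arrays the gene was not called (limma adjusted p = 0.267). Without replicate 3 its R-2HG log2 fold change was -1.21 (limma adjusted p = 5.15e-05), and with that array alone it was 0.72.

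The ISG15 system attaches the ubiquitin-like protein Isg15 to other proteins. Usp18, which removes Isg15 and damps the interferon receptor, had 0.91, 0.60 and 0.14 in IDH1mut, 0.00, -0.06 and 0.54 in R-2HG, -0.31, -0.10 and -0.16 in IDH1wt, and -0.07, -0.12 and -0.12 in empty vector. All IDH1mut arrays lay above all IDH1wt and empty vector arrays, with a log2 fold change of 0.66 ± 0.18 against empty vector (SE, limma adjusted p = 0.0222). Herc6, the main Isg15 ligase of the mouse, had 0.26, 0.29 and 0.38 in IDH1mut, -0.10, -0.25 and 0.02 in R-2HG, -0.09, -0.25 and 0.02 in IDH1wt, and -0.23, -0.11 and -0.12 in empty vector. Averaged over its 4 probe sets, it was high in the IDH1mut arrays alone. Its log2 fold change was 0.46 ± 0.09 against empty vector (SE, limma adjusted p = 0.00338) and 0.42 ± 0.09 against R-2HG (limma adjusted p = 0.00545). The probe sets disagreed on R-2HG. Against empty vector, 1 of them rose by 0.52 in R-2HG (limma adjusted p = 0.00472) and by 0.55 in IDH1mut. The other probe sets were not called in R-2HG. Against R-2HG, 3 of the 4 were called higher in IDH1mut, and that 1 gave 0.03 (limma adjusted p = 0.839).

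The ADP-ribosylation group holds Parp9 and its partner ubiquitin ligase Dtx3l, and Parp14. Parp9 was called higher in IDH1mut, by 0.33 ± 0.10 (SE, limma adjusted p = 0.0268), with 0.14, 0.16 and 0.27 in IDH1mut, -0.18, -0.14 and 0.19 in R-2HG, 0.12, 0.00 and 0.08 in IDH1wt, and -0.20, -0.14 and -0.08 in empty vector. Parp14, a mono-ADP-ribosyl transferase, was called higher in R-2HG, by 0.40 ± 0.13 (limma adjusted p = 0.0306), with 0.13, -0.10 and -0.16 in IDH1mut, 0.00, -0.08 and 0.50 in R-2HG, 0.00, 0.14 and 0.04 in IDH1wt, and -0.20, -0.25 and -0.32 in empty vector. That call rested on replicate 3, without which its adjusted p was 0.0772. Dtx3l was not called in either comparison.

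Among the sensors of foreign nucleic acid, Ddx58 (RIG-I), which detects viral RNA ends, was higher and Ifih1 (MDA5), which detects long double-stranded RNA, was lower. Ddx58 had 0.26, 0.36 and 0.26 in IDH1mut, 0.22, 0.18 and 0.44 in R-2HG, -0.15, -0.01 and -0.15 in IDH1wt, and -0.18, -0.24 and -0.17 in empty vector. Averaged over its 3 probe sets, both higher groups were clear of both lower ones. The log2 fold changes against empty vector were 0.49 ± 0.08 in IDH1mut (SE, limma adjusted p = 0.00114) and 0.47 ± 0.08 in R-2HG (limma adjusted p = 0.000843). In each of these comparisons 2 of the 3 probe sets were called. The uncalled one gave 0.18 in IDH1mut (limma adjusted p = 0.358), and a different one gave 0.23 in R-2HG (limma adjusted p = 0.147). Ifih1 fell by 0.25 on the log2 scale in IDH1mut (limma adjusted p = 0.0157) and by 0.17 in R-2HG (limma adjusted p = 0.0469). Dhx58 and Zbp1, a regulator of the RNA helicases and a Z-nucleic-acid sensor, were not called in either.

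Eif2ak2 (PKR), the kinase that stops translation on sensing double-stranded RNA, had -0.25, -0.23 and -0.72 in IDH1mut, 0.32, 0.20 and 0.18 in R-2HG, -0.24, 0.13 and -0.04 in IDH1wt, and -0.17, 0.00 and -0.04 in empty vector. The R-2HG arrays lay above all others, while IDH1mut replicates 1 and 2 lay close to IDH1wt replicate 1. Against empty vector the gene was not called, at -0.33 in IDH1mut (limma adjusted p = 0.0943) and 0.30 in R-2HG (limma adjusted p = 0.0817). Of its 3 probe sets, 2 were called lower in IDH1mut against empty vector, and the other gave 0.36 (limma adjusted p = 0.0722). IDH1mut was lower than R-2HG by -0.63 ± 0.13 on the log2 scale (SE, limma adjusted p = 0.0047). Its 3 probe sets disagreed there: their log2 fold changes spanned -1.38 to 0.43, with 2 called lower and 1 called higher. Opposite calls among probe sets also occurred for Dhx58 in R-2HG against empty vector and for Ddx58 in IDH1mut against R-2HG.

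Of the transcription factors, Irf9, the DNA-binding part of the interferon-activated complex, had 0.31, 0.31 and 0.16 in IDH1mut, -0.05, 0.03 and 0.20 in R-2HG, -0.17, -0.06 and -0.15 in IDH1wt, and -0.12, 0.01 and -0.13 in empty vector. It rose in IDH1mut by 0.34 ± 0.08 (SE, limma adjusted p = 0.0111), and its R-2HG difference of 0.14 was not called (limma adjusted p = 0.19). Irf7, which amplifies interferon production, had 0.39, 0.16 and -0.14 in IDH1mut, 0.00, 0.03 and 0.47 in R-2HG, -0.29, -0.05 and -0.14 in IDH1wt, and -0.54, -0.43 and -0.28 in empty vector. It rose in IDH1mut by 0.56 ± 0.15 (limma adjusted p = 0.0187) and in R-2HG by 0.58 ± 0.15 (limma adjusted p = 0.0089). Stat2 was not called in any of the 5 comparisons made.

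The membrane proteins went opposite ways. Bst2 (tetherin), which holds budding virus on the cell surface, had -0.38, -0.71 and -1.08 in IDH1mut, -0.56, -0.50 and 0.08 in R-2HG, 0.19, 0.05 and 0.00 in IDH1wt, and 0.25, 0.31 and 0.31 in empty vector. The IDH1mut arrays lay below all IDH1wt and empty vector arrays. Its log2 fold change was -1.01 ± 0.18 in IDH1mut (SE, limma adjusted p = 0.00189), which is 2.02-fold lower and the largest fall of any member in that comparison. In R-2HG it was -0.62 ± 0.18 (limma adjusted p = 0.0173), with -0.82 in replicates 1 and 2 (limma adjusted p = 0.00148) and -0.21 in replicate 3 alone (limma adjusted p = 0.567). Ifitm3, which blocks virus entry at endosomes, had 0.10, -0.04 and 0.03 in IDH1mut, 0.19, 0.16 and 0.26 in R-2HG, -0.02, -0.02 and -0.03 in IDH1wt, and -0.11, -0.21 and -0.14 in empty vector. It rose in R-2HG by 0.36 ± 0.06 (limma adjusted p = 0.00127), and its IDH1mut difference of 0.18 was not called (limma adjusted p = 0.0605).

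The other 12 measured effectors held 6 that were called higher in IDH1mut. Rsad2 (viperin), which makes a chain-terminating nucleotide, had 0.79, 0.68 and 0.61 in IDH1mut, -0.02, -0.07 and 0.42 in R-2HG, -0.21, 0.00 and -0.23 in IDH1wt, and -0.50, -0.69 and -0.67 in empty vector. The groups were ordered with IDH1mut clear above all other arrays and empty vector clear below them. It rose 2.49-fold in IDH1mut (log2 1.32 ± 0.12, SE, limma adjusted p = 3.66e-05) and 1.66-fold in R-2HG (log2 0.73 ± 0.12, limma adjusted p = 0.000764). Its genomic neighbour Cmpk2, a mitochondrial nucleotide kinase, had 0.34, 0.43 and 0.32 in IDH1mut, 0.19, -0.02 and 0.28 in R-2HG, -0.25, -0.19 and -0.21 in IDH1wt, and -0.23, -0.01 and -0.15 in empty vector. Its rise in IDH1mut was 1.41-fold (limma adjusted p = 0.00171) and rested on 1 of its 2 probe sets, which gave 0.85 on the log2 scale while the other gave 0.14 (limma adjusted p = 0.493). The R-2HG call of Cmpk2 (log2 0.28, limma adjusted p = 0.0227) rested on the same probe set, which gave 0.82 while the other gave -0.26.

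Samd9l, an antiviral regulator of endosomes and translation, had 0.42, 0.59 and 0.78 in IDH1mut, -0.05, 0.00 and 0.55 in R-2HG, -0.19, -0.11 and -0.13 in IDH1wt, and -0.21, -0.35 and -0.38 in empty vector. It rose by 0.91 ± 0.14 in IDH1mut (SE, limma adjusted p = 0.000798) and by 0.48 ± 0.14 in R-2HG (limma adjusted p = 0.0177). Isg20, an RNA exonuclease, had 0.34, 0.32 and 0.17 in IDH1mut, -1.15, -0.91 and 0.07 in R-2HG, -0.32, 0.13 and -0.07 in IDH1wt, and -0.32, -0.26 and -0.11 in empty vector. R-2HG replicates 1 and 2 were the lowest arrays. Trim30a, Rtp4 and Cxcl10, a ubiquitin ligase, a receptor chaperone and a chemokine, were also called higher in IDH1mut, with log2 fold changes of 0.29, 0.74 and 0.43. Lgals3bp, a secreted glycoprotein, was called lower in R-2HG, by -0.45 ± 0.08 (limma adjusted p = 0.00105). Xaf1, which favours cell death, had -0.09, -0.13 and -0.02 in IDH1mut, 0.15, 0.03 and 0.16 in R-2HG, -0.08, -0.11 and -0.20 in IDH1wt, and -0.13, -0.10 and -0.01 in empty vector. Averaged over its 2 probe sets, its R-2HG arrays lay above all others, with a log2 fold change of 0.19 ± 0.07 against empty vector (limma adjusted p = 0.0419). Neither probe set was called by itself there, each at 0.19 (limma adjusted p = 0.185 and 0.142). Ifi27l2a was also called higher in R-2HG, by 0.45. Sp100, a nuclear-body protein, and Ifi35 were not called in IDH1mut or in R-2HG against empty vector. Of the 2 Sp100 probe sets, 1 gave 0.32 in IDH1mut (limma adjusted p = 0.0421) and the other gave -0.06 (limma adjusted p = 0.645).

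**Figure D2:**
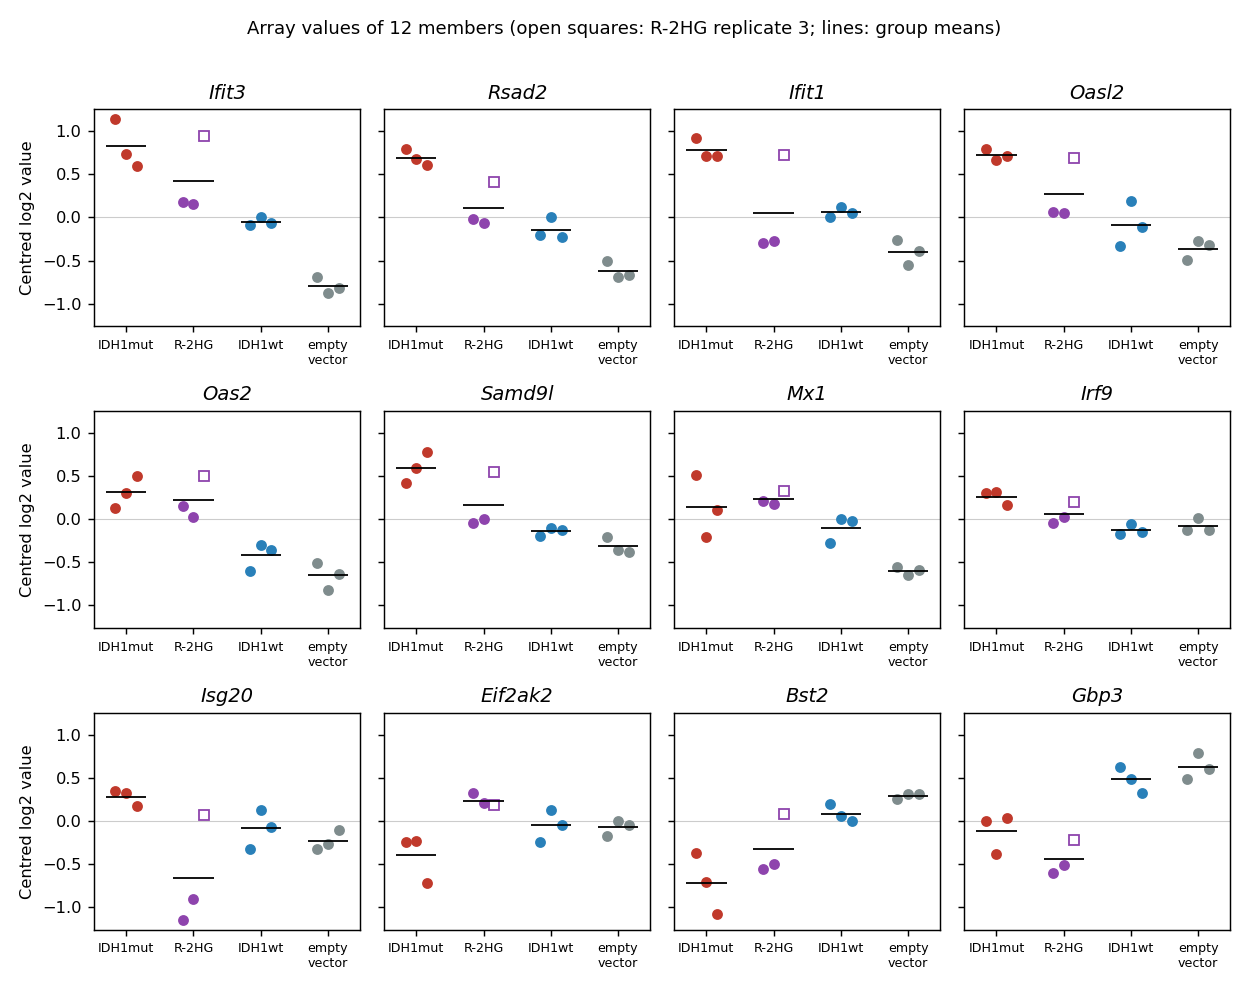
Centred log2 values of 12 members (panels) on each array, by group, with the group mean as a line. R-2HG replicate 3 is an open square. In Ifit3, Rsad2, Ifit1, Oasl2 and Samd9l it lies near the IDH1mut arrays and above the other R-2HG arrays, and Bst2 and Gbp3 are lower in IDH1mut than in empty vector on every array.

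The call of a member did not always survive the loss of 1 array. Of the 23 members called in IDH1mut against empty vector, 15 were called with each of the 12 arrays left out in turn and 8 were not. Those were Oasl1, Usp18, Parp9, Irf7, Trim30a, Rtp4, Cxcl10 and Ifih1, all of which lost their call without empty vector replicate 2, where 15 members were called. Among the 21 members called in R-2HG, 13 were called with each array left out and 8 were not, namely Oas1a, Parp14, Cmpk2, Samd9l, Xaf1, Ifi27l2a, Ifih1 and Bst2. Without empty vector replicate 2, or without empty vector replicate 3, 14 members were called in R-2HG. The IDH1wt count of 1 became 0 without empty vector replicate 3 and 4 without R-2HG replicate 3, when Ifit1, Ifit3 and Rsad2 were called higher too. At an unadjusted p under 0.05 the limma fit with all arrays gave 9 members higher and 1 lower in IDH1wt. The share of all genes is not given for the IDH1wt counts with an array left out. Nor is it given for unadjusted counts, here or further on. None of these counts is read as particular to the members.

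**Figure D3:**
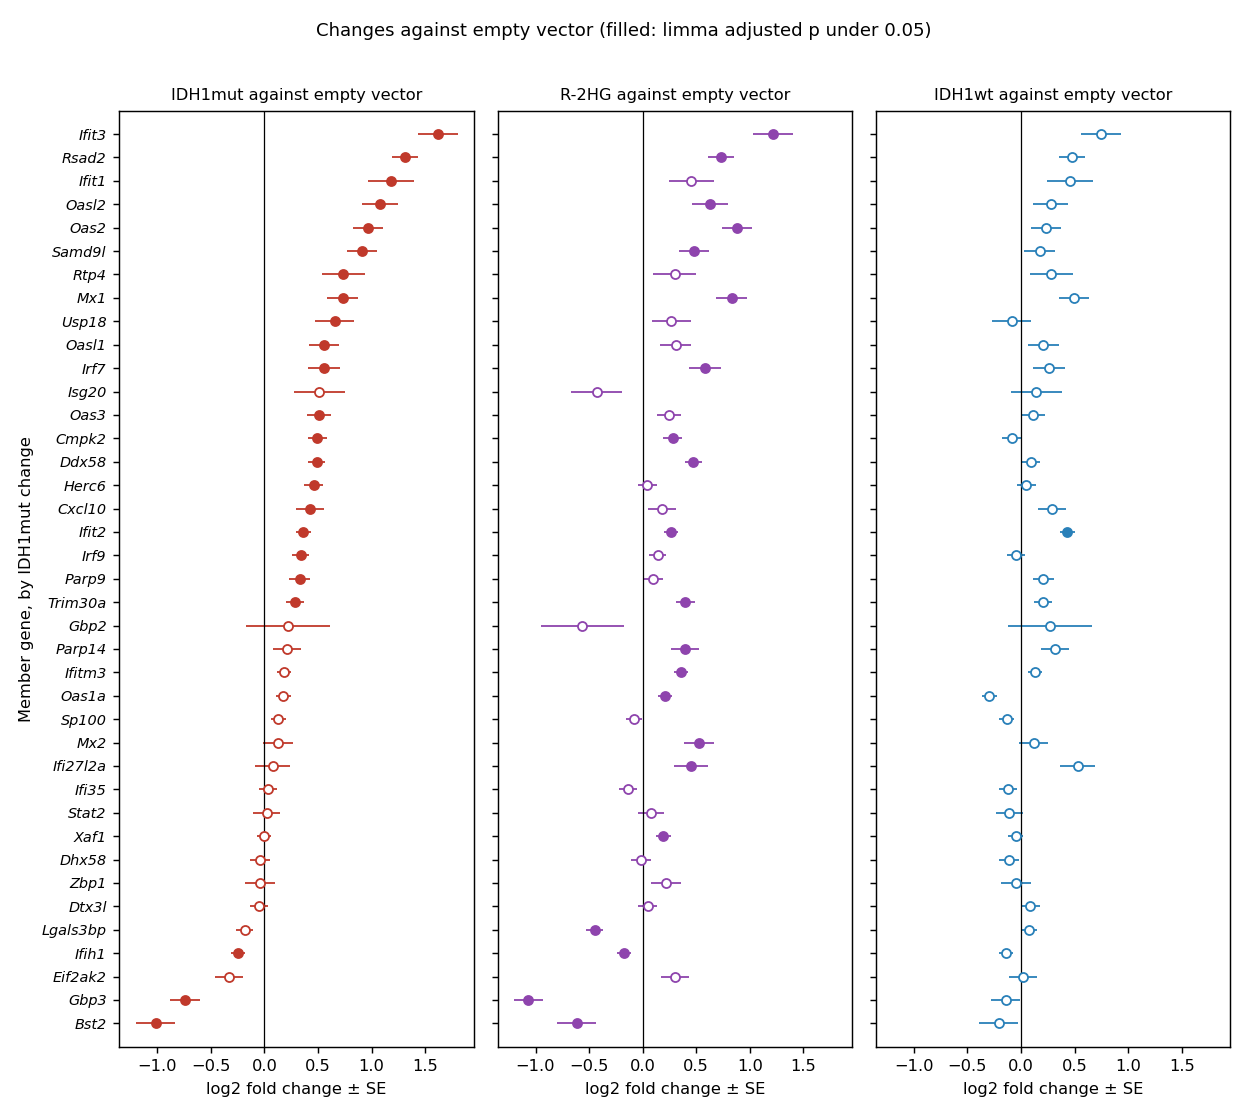
Log2 fold change against empty vector (x axis, ± SE) of the 39 members (y axis, ordered by the IDH1mut change) in IDH1mut, R-2HG and IDH1wt cells, n = 3 arrays per group. Filled points passed the limma threshold: 23 in IDH1mut, 21 in R-2HG and 1 in IDH1wt.

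Set against IDH1wt cells, 14 members were called higher in IDH1mut and 3 lower, where 8.37% and 7.29% of all genes were called. Whether the mutant and wild-type constructs were expressed alike is unknown here. The median over members was 0.16, against 0.00 over all genes. Cmpk2 was higher by 0.58 ± 0.09 on the log2 scale (SE, limma adjusted p = 0.00117). The log2 fold changes were 0.87 ± 0.19 for Ifit3 (limma adjusted p = 0.00859), 0.84 ± 0.12 for Rsad2 (limma adjusted p = 0.00104), 0.80 ± 0.17 for Oasl2 (limma adjusted p = 0.00718) and 0.73 ± 0.14 for Oas2 (limma adjusted p = 0.00453). Bst2 was lower by -0.81 ± 0.18 (limma adjusted p = 0.0107) and Gbp3 by -0.60 ± 0.14 (limma adjusted p = 0.0118). The third lower member was Lgals3bp at -0.26. Ifit2 and Mx1 were not called, with differences of -0.07 and 0.24. Of the 17 calls, 12 held with each array left out, and Ifit1, Oas3, Usp18, Sp100 and Lgals3bp lost theirs at least once.

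IDH1mut cells were next compared with empty vector cells from recipients given R-2HG. The level of R-2HG reached in either group is not given here. With all arrays 7 members were called higher in IDH1mut and 3 lower, where 20.3% and 15.8% of all genes were called, so neither count stood above the share of all genes. The median over members was 0.17, against 0.00 over all genes. Rsad2 was higher in IDH1mut by 0.58 ± 0.12 on the log2 scale (SE, limma adjusted p = 0.00483), Isg20 by 0.94 ± 0.24 (limma adjusted p = 0.0117) and Ifit1 by 0.73 ± 0.21 (limma adjusted p = 0.021). Herc6, Samd9l, Sp100 and Lgals3bp were the other higher members, and Eif2ak2, Mx2 and Xaf1 were the lower ones. The Sp100 call rested on 1 of its 2 probe sets, which gave 0.44 on the log2 scale while the other gave -0.01. Only Rsad2, Herc6 and Eif2ak2 were called with each of the 12 arrays left out in turn.

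This comparison turned on R-2HG replicate 3. That array lay above both other R-2HG arrays in 33 of 39 members (84.6%), as it did in 40.1% of all genes, and below both in 4 members (10.3%), as in 39.4% of all genes. Its difference from the mean of replicates 1 and 2 had a median of 0.24 over members and 0.00 over all genes. The size of that difference reached 0.5 in 10 members (25.6%), against 6.12% of all genes. It was 1.93 for Gbp2, 1.10 for Isg20, 1.01 for Ifit1, 0.96 for Rtp4, 0.77 for Ifit3 and 0.64 for Oasl2. It ran the other way in Ifi27l2a, at -0.50, and in Mx2, at -0.45. Ifit2, Oas1a, Ifih1 and Sp100 differed least among the members above 0, by 0.01, 0.02, 0.05 and 0.06.

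Without replicate 3, 18 members were called higher in IDH1mut than in R-2HG and 3 lower (22.5% and 18.5% of all genes), and the median over members was 0.23. The log2 fold change was then 1.06 for Ifit1 (limma adjusted p = 2.78e-05), 0.66 for Ifit3 (limma adjusted p = 0.00275) and 0.66 for Oasl2 (limma adjusted p = 0.00234). With replicate 3 as the single R-2HG array, assumed to vary like the other groups, 0 members were called by limma (1.43% of all genes were called higher and 0.687% lower), and at an unadjusted p under 0.05 1 was higher and 8 were lower. The median over members was then -0.04, and Ifit1, Ifit3 and Oasl2 stood at 0.05, -0.12 and 0.03. Without R-2HG replicate 1 the count of called members was 4, and without replicate 2 it was 3.

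Against empty vector, R-2HG replicates 1 and 2 gave 13 members called higher and 5 lower (18.8% and 25.5% of all genes) with a median of 0.13. Replicate 3 alone gave 15 higher and 1 lower (3.41% and 8.09% of all genes) with a median of 0.33. Both use the same empty vector arrays. For Ifit3 the log2 fold change against empty vector was 0.96 in replicates 1 and 2 and 1.73 in replicate 3. For Rsad2 it was 0.58 and 1.04 in the same order, and for Mx1 it was 0.79 and 0.92. Among the other members called with all R-2HG arrays, the value in replicate 3 was larger for Oas2 (0.74 in replicates 1 and 2 and 1.15 in replicate 3), Samd9l (0.29 and 0.86), Irf7 (0.43 and 0.89) and Ddx58 (0.39 and 0.63). It was smaller for Gbp3 (-1.18 and -0.84). Parp14 was 0.22 in replicates 1 and 2 and 0.76 in replicate 3. Ifitm3 and Trim30a were called in either setting. Cmpk2 was called in replicate 3 alone (limma adjusted p = 0.0393) and missed the threshold in replicates 1 and 2 (limma adjusted p = 0.0709). Ifit2, Lgals3bp and Ifi27l2a were called in replicates 1 and 2 and missed the threshold in replicate 3 (limma adjusted p = 0.128, 0.0872 and 0.753). Oas1a, Xaf1 and Ifih1 passed in neither setting.

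Isg20 was called lower in replicates 1 and 2, at -0.80 (limma adjusted p = 0.000544), and stood at 0.30 in replicate 3. Rtp4 stood at -0.02 in replicates 1 and 2 and at 0.94 in replicate 3.

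**Figure D4:**
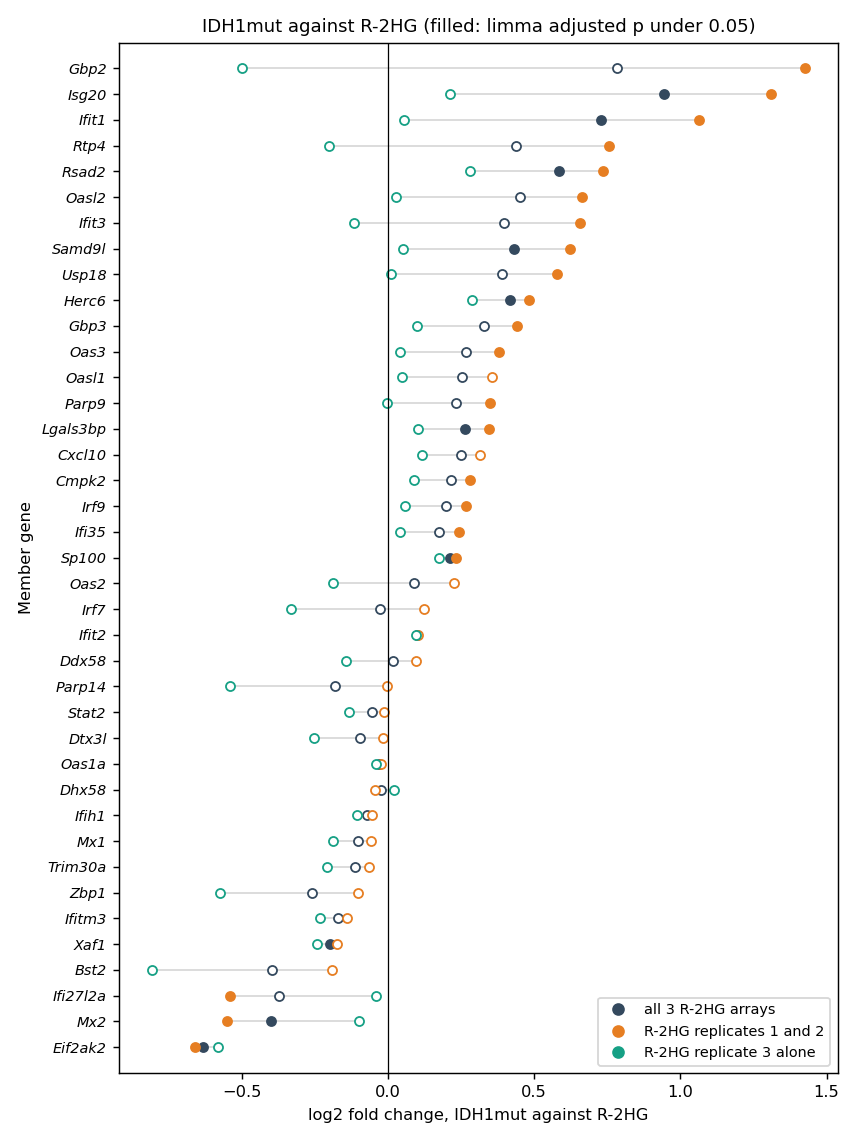
Log2 fold change of IDH1mut against R-2HG (x axis) for the 39 members (y axis), with all 3 R-2HG arrays, with replicates 1 and 2, and with replicate 3 alone. Filled points passed the limma threshold: 10 with all arrays, 21 without replicate 3 and 0 with replicate 3 alone.

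Other genes of the pathway were counted in the same way, beside 10.5% of all genes called higher and 12.1% lower in IDH1mut, and 16.5% and 24.3% in R-2HG. Of 9 measured genes of the receptor and its signalling, 4 were called higher in IDH1mut and 3 lower. Jak1, the kinase shared by several cytokine receptors, had 0.53, 0.47 and 0.62 in IDH1mut, -0.12, -0.25 and -0.07 in R-2HG, -0.01, 0.25 and -0.07 in IDH1wt, and 0.02, -0.05 and 0.00 in empty vector. It was high in the IDH1mut arrays alone (log2 fold change against empty vector 0.55 ± 0.09, SE, limma adjusted p = 0.00114). The receptor chains went opposite ways in IDH1mut, Ifnar1 by 0.30 and Ifnar2 by -0.20 (limma adjusted p = 0.0256 and 0.0452). In R-2HG 2 of the 9 were called, Ifnar1 and Tyk2, both higher. Both were called without replicate 3, and Ifnar1 with replicate 3 alone.

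Among 12 genes that induce interferon, 4 were called higher and 1 lower in IDH1mut, and 3 higher and 1 lower in R-2HG. The R-2HG counts were 4 higher and 1 lower without replicate 3, and 1 higher (Irf1) with it alone. Myd88, an adaptor of Toll-like receptors, had 0.38, 0.32 and 0.31 in IDH1mut, 0.05, 0.04 and 0.12 in R-2HG, 0.00, 0.05 and 0.00 in IDH1wt, and -0.10, -0.23 and -0.21 in empty vector. The gene for interferon-beta itself, Ifnb1, was called higher in R-2HG (log2 0.39 ± 0.12, SE, limma adjusted p = 0.0226), and its IDH1mut difference of 0.22 was not called (limma adjusted p = 0.227).

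Of 18 other measured interferon-induced genes, 6 were called higher and 1 lower in each of IDH1mut and R-2HG, against a share of all genes called higher that was greater in R-2HG (16.5%) than in IDH1mut (10.5%). The R-2HG counts were 4 higher and 2 lower without replicate 3, and 2 higher (Adar and Parp12) with it alone. The RNA helicase relative Ddx60 had 0.75, 0.54 and 0.82 in IDH1mut, 0.03, -0.07 and 0.14 in R-2HG, -0.27, -0.02 and 0.01 in IDH1wt, and -0.03, -0.03 and -0.20 in empty vector. It was high in IDH1mut alone, at 0.79 ± 0.10 against empty vector (SE, limma adjusted p = 0.00026). Parp12 and the RNA-editing enzyme Adar were called higher in both groups, Parp12 by 0.42 and 0.44, and Adar by 0.30 and 0.50, in IDH1mut and R-2HG in that order.

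Of the 14 measured genes typical of interferon-gamma, few were called with all arrays, near the shares of all genes called lower (12.1% in IDH1mut and 24.3% in R-2HG). In IDH1mut 2 of them were called lower and none higher by limma (1 higher and 3 lower at an unadjusted p under 0.05), and in R-2HG 3 were called lower and none higher (0 higher and 5 lower unadjusted). Irf8, a factor that directs monocyte and dendritic cell fate as well as responding to interferon-gamma, had -0.07, -0.82 and -0.38 in IDH1mut, -0.23, -0.24 and 0.01 in R-2HG, 0.51, 0.38 and 0.41 in IDH1wt, and 0.38, 0.37 and 0.56 in empty vector. All IDH1mut and R-2HG arrays lay below all IDH1wt and empty vector arrays, with log2 fold changes against empty vector of -0.86 ± 0.15 in IDH1mut (SE, limma adjusted p = 0.00165) and -0.59 ± 0.15 in R-2HG (limma adjusted p = 0.00854). Psmb8, an immunoproteasome subunit, was the other lower gene in IDH1mut (-0.51, limma adjusted p = 0.00173), and Psmb8 and Tap1 were lower in R-2HG. The R-2HG counts of this list depended on replicate 3. Without it 7 were called lower and 0 higher by limma (8 lower and 0 higher at an unadjusted p under 0.05), namely Ciita, Irf8, Iigp1, Ifi47, Tap1, Psmb8 and Cxcl9, where 25.5% of all genes were called lower. With replicate 3 alone 4 were called higher (Irf1, Igtp, Irgm1 and Cd274), where 3.41% of all genes were, and 0 lower by limma (4 higher and 0 lower unadjusted). These genes were named after their values were seen.

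Markers of cell types and handling also differed between the groups. Against empty vector, 10.5% of all genes were called higher and 12.1% lower in IDH1mut, and 16.5% and 24.3% in R-2HG. In IDH1wt these shares were 0.788% and 0.561%, and without R-2HG replicate 3 those of R-2HG were 18.8% and 25.5%. Mature neutrophil markers had list medians from 0.21 to 0.27 in IDH1mut, 0.13 to 0.23 in R-2HG, -0.12 to -0.03 in IDH1wt and -0.27 to -0.10 in empty vector, and 6 of 10 were called higher in each of IDH1mut and R-2HG. Neutrophil precursor markers had medians from -0.66 to -0.59 in IDH1mut, 0.08 to 0.17 in IDH1wt and 0.16 to 0.32 in empty vector, with R-2HG at -0.39 in replicate 3 and at 0.00 in replicates 1 and 2. All 5 were called lower in both IDH1mut and R-2HG, and without R-2HG replicate 3 this was 2 in R-2HG. Early response and heat shock genes, which react to how cells are handled, had medians from -0.42 to -0.16 in IDH1mut, 0.00 to 0.45 in R-2HG, -0.62 to -0.37 in IDH1wt and 0.87 to 1.18 in empty vector, and 7 of 10 were called lower in both IDH1mut and IDH1wt and 6 in R-2HG. Their median log2 fold change against empty vector was -1.42 in IDH1mut and -1.49 in IDH1wt, where the members' medians were 0.33 and 0.12. R-2HG replicate 3 had the highest handling median of its group. The part of these markers in the interferon results was not tested.

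Plasmacytoid dendritic cells, the main producers of type I interferon, were followed by 7 measured markers. Of these, 1 was called higher in IDH1mut (Ccr9) and 1 lower in R-2HG (Tcf4). Without R-2HG replicate 3, 3 were called lower in R-2HG (Tcf4, Ly6d and Spib) and 1 higher (Klk1), where 25.5% and 18.8% of all genes were. The list medians ran from -0.15 to 0.18 in IDH1mut, -0.12 to 0.13 in R-2HG, 0.00 to 0.29 in IDH1wt and -0.07 to 0.19 in empty vector, so all 4 groups overlapped. Of 7 monocyte markers, 2 were called lower in IDH1mut and 1 in R-2HG. Markers of eosinophils and mast cells had medians of -2.12 and -2.34 in R-2HG replicates 1 and 2 and 0.28 in replicate 3, and without replicate 3 all 7 of them were called lower in R-2HG. B cell markers had medians from 0.45 to 1.24 in IDH1mut, -0.63, -0.75 and -0.06 in R-2HG replicates 1, 2 and 3, -0.36 to 0.31 in IDH1wt, and 0.00 to 1.04 in empty vector. Of the 7 B cell markers, Vpreb1 and Igll1 were called higher in IDH1mut against empty vector, and 3 were called lower in R-2HG. In IDH1mut against R-2HG 5 of them were called higher, where 20.3% of all genes were. Erythroid markers had medians from 0.12 to 0.39 in IDH1mut, -0.936, -0.997 and 0.00 in R-2HG replicates 1, 2 and 3, -0.72 to 0.28 in IDH1wt, and -0.64 to -0.485 in empty vector. Of these 7, Epor and Alas2 were called higher in IDH1mut against empty vector, and 5 were higher in IDH1mut than in R-2HG. Epor was the one erythroid marker called in R-2HG against empty vector, higher. Without R-2HG replicate 3, Klf1, Slc4a1 and Tfrc were called lower there, and Epor was still called higher. Of 6 T and NK cell markers, 2 were called higher and 1 lower in IDH1mut, and 3 were called lower in R-2HG. The part of these cell types in the interferon results, and in the difference between R-2HG arrays, was not tested.

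**Figure D5:**
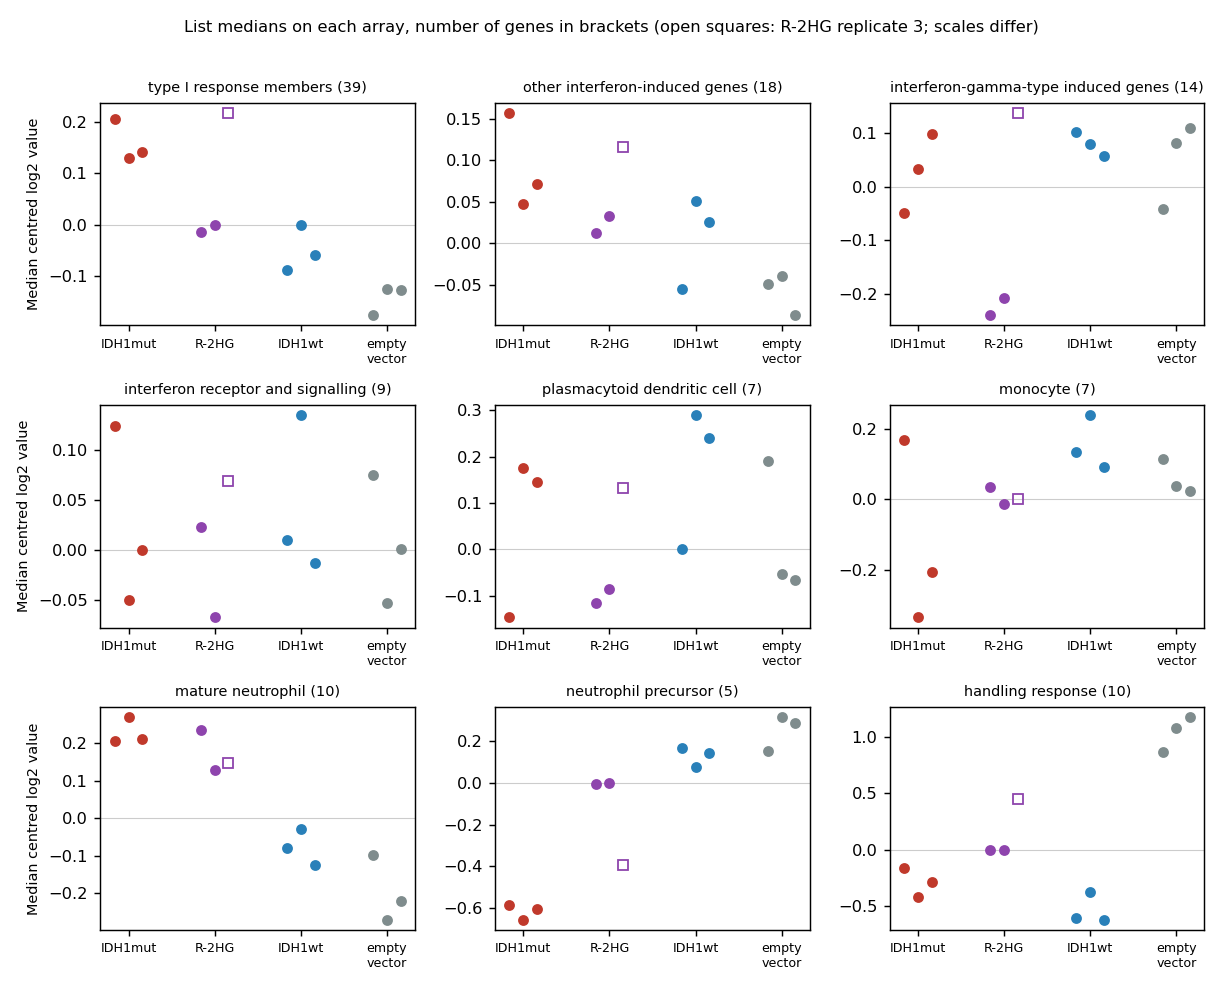
Median centred log2 value (y axis, scales differ) of 9 gene lists (panels, number of measured genes in brackets) on each array, by group. R-2HG replicate 3 is an open square. It lies with the IDH1mut arrays for the type I response members (0.22) and between the other R-2HG arrays and IDH1mut for neutrophil precursor markers (-0.39).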

How the data were processed

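Per the submitters' processing notes the arrays were summarised with RMA, whose version is not stated, and the authors deposited log2 values. Their table covers 32533 probe sets, of which 83.6% hold an exact 0 on some array; each was centred on a reference that no source here names. Array medians are all 0. No scan date or batch was given, and the number of arrays limits the precision.

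Values of probe sets with 1 symbol (28805) were averaged per gene, which gave 15858 genes. The 12 arrays entered 1 linear model with a coefficient per group and moderated variances, in limma 3.58.1 under R 4.3.3, with 8 residual and 3.96 prior degrees of freedom. Tests were two-sided, adjusted by Benjamini-Hochberg over all genes, with a threshold of 0.05. The fit was tested on simulated data. The members, gene lists and tests were chosen with earlier results of these data known.

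All members are named by role, and array values are given for the 2 members of each role group with the smallest F-test p, the 8 largest changes, the 2 largest decreases, IDH1wt calls, and the 4 smallest p in each direction of IDH1mut against R-2HG. Array values of Gbp2 were added after its values were seen. Of pathway genes outside the members, the 6 with the smallest F-test p are named, and Ifnar1, Ifnar2, Tyk2, Ifnb1, Psmb8, Tap1, the marker genes and the genes of lists recounted without R-2HG replicate 3 were named after their values were seen.

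Promoters were those of RefSeq, with 250 bases before each start. Alternatives covered the summary of probe sets, a second quantile normalization, robust eBayes, array weights, 6-array fits, a replicate block, a fold change minimum of 1.5 and each array left out. The planned filter on mean level cannot be applied to centred values, and a filter at the 30th percentile of SD took its place.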

Additional observations from a re-analysis of the deposited data

Results flagged for a closer look

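A probe set annotated with both Trim30d and Trim30a lies outside the comparisons, since it cannot be given to 1 gene. It had centred log2 values of 0.00, -0.24 and -0.17 in IDH1mut, 0.32, 0.38 and 0.66 in R-2HG, -0.50, 0.01 and -0.24 in IDH1wt, and -0.39, -0.51 and -0.56 in empty vector. It drew attention because all R-2HG arrays lay above all other arrays, with a log2 fold change of 0.94 ± 0.13 against empty vector (SE, n = 3 per group, limma adjusted p = 0.0003). It was lower in IDH1mut than in R-2HG, by -0.59 ± 0.13 (limma adjusted p = 0.0062). The 2 probe sets of Trim30a alone averaged 0.40 in R-2HG against empty vector and -0.11 in IDH1mut against R-2HG, and they were unlike. In the same order of comparisons, 1 gave 0.66 (limma adjusted p = 0.00086) and -0.32 (limma adjusted p = 0.0442). The other gave 0.14 (limma adjusted p = 0.228) and 0.09 (limma adjusted p = 0.424).

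The probe set annotated with Isg15 and Gm9706 had 0.07, 0.02 and -0.80 in IDH1mut, 0.00, 0.04 and 0.64 in R-2HG, -0.39, -0.03 and -0.34 in IDH1wt, and -0.06, -0.25 and -0.07 in empty vector. It was not called in any of the 5 comparisons, and which of the 2 genes it reads is not settled here.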

How the results depend on the processing

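The members called numbered 23 in IDH1mut and 21 in R-2HG against empty vector, 1 in IDH1wt against empty vector, 17 in IDH1mut against IDH1wt and 10 in IDH1mut against R-2HG. With a fold change of at least 1.5 these counts were 11, 7, 0, 9 and 3. Shares of all genes called are not given beside the counts of these alternatives. A changed count is therefore not read as particular to the members. A second quantile normalization gave 2 for IDH1wt and 6 for IDH1mut against R-2HG, array weights gave 7 and 24, and fits of only the groups compared gave 5 and 4. Leaving out each array in turn gave 15 to 24 for IDH1mut against empty vector, 0 to 4 for IDH1wt against empty vector and 3 to 21 for IDH1mut against R-2HG. Without R-2HG replicates 1 and 2, IDH1mut against R-2HG had 0 members called by limma (1 higher and 8 lower at an unadjusted p under 0.05) and a median of -0.0415. The median log2 fold change over members was 0.44 with the SD filter in IDH1mut against empty vector, which drops members, and 0.19 with array weights in R-2HG against empty vector. Over arrays left out it ran from 0.129 to 0.310 in R-2HG against empty vector. In IDH1mut against IDH1wt it was 0.24 with the probe set of highest SD, 0.32 with the SD filter, and 0.14 to 0.27 over arrays left out. Among 1333 values of 57 called gene and comparison pairs, 1188 kept direction and call, 143 lost the call and 2 turned. These were Cmpk2 in R-2HG against empty vector (-0.26) and Eif2ak2 in IDH1mut against R-2HG (0.43), where every probe set had to be called, because their probe sets disagree. The ISRE core on the gene's strand alone was in 11.1% of member windows. With a replicate block the counts were 22, 19, 1, 16 and 7 in the order above. Same-numbered arrays did not deviate together (18 pairs, correlations from -0.152 to 0.124, 1 of them over 0.1). With 3 arrays per group this cannot show whether the samples were handled in numbered sets. Other causes of these shifts were not tested.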
